A study of Mus musculus with 45 samples.

Results

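The 10 genes described here, Grb10, Igf2r, Airn, Kcnq1, Kcnq1ot1, Meg3, Rian, Peg3, Sgce and Impact, are imprinted in the mouse, and they were taken with each of their annotated transcripts. They had 74 of the 122968 transcripts for which transcription wave-fronts were tabulated. A wave-front boundary was called in at least 1 sample for 60 of the 74 transcripts and in each of the 27 samples for 35. The other 14 transcripts had no boundary in any sample. The longest of these was 4416 bases, and the shortest transcript with a boundary was 5206 bases.

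Imprinted genes are expressed mainly or only from the maternal or the paternal copy, as set by DNA methylation laid down in the germ line. Several lie in clusters in which a long non-coding RNA, transcribed from the copy that lacks the methylation, goes along with silencing of protein-coding neighbours on the same chromosome. Airn in the Igf2r cluster and Kcnq1ot1 in the Kcnq1 cluster are both transcribed on the strand opposite to the gene they overlap, and Meg3 and Rian are maternally expressed non-coding RNAs of the Dlk1-Dio3 cluster.

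The cells were mouse embryonic stem cells (ESCs) of the E14 line, grown in 2i medium, a medium with inhibitors that hold the cells in the naive pluripotent state. WT/WT cells were the parental line, WT/slow cells carried the R749H substitution in 1 copy of Polr2a, the gene of the largest subunit of RNA polymerase II, and slow/slow cells carried it in both copies. The mutant lines were made by homologous recombination, and slow/slow cells were derived from WT/slow cells, so that each genotype stands for 1 lineage of cells. All 3 genotypes were held for 4 h in DRB (the length in the labels and methods, while the study's results text gives a shorter one), which stops polymerases from leaving the promoter, and were harvested 5, 15 or 30 min after its removal, with newly made RNA marked by 4-thiouridine for the last 10 min. The boundary is the distance from the transcription start to the called end of the wave of new RNA. It is meant to give how far polymerases had moved into each gene. Some boundaries lay nearer the start at a later time, as all those of Igf2r at 30 min against 15 min. Such values cannot be read as distance moved, and why they arose was not tested. Farther and nearer below refer to the called position. There were 3 replicates for each genotype and time, 27 samples of the 45 in the series, and the other 18, without release from DRB or without DRB, were not analysed here.

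Across all transcripts, 41989 to 55046 boundaries were called per sample, between 0.2 and 59.3 kb from the start. The commonest value was 2.5 kb, which was 53.3% of all boundaries and 675 of the 1508 boundaries of the imprinted genes (44.8%). A boundary holds no level of RNA, so that neither the cell type nor the expression of these genes could be checked from markers, and the sequencing depth is unknown. RNA from the maternal and the paternal copy was not separated. Each gene is described by 1 transcript, ENSMUST00000150972 for Grb10 and for the others the one with a boundary in most samples, and transcripts of a gene share most of their sequence and often their start, so that they are not independent of each other.

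**Figure D1:**
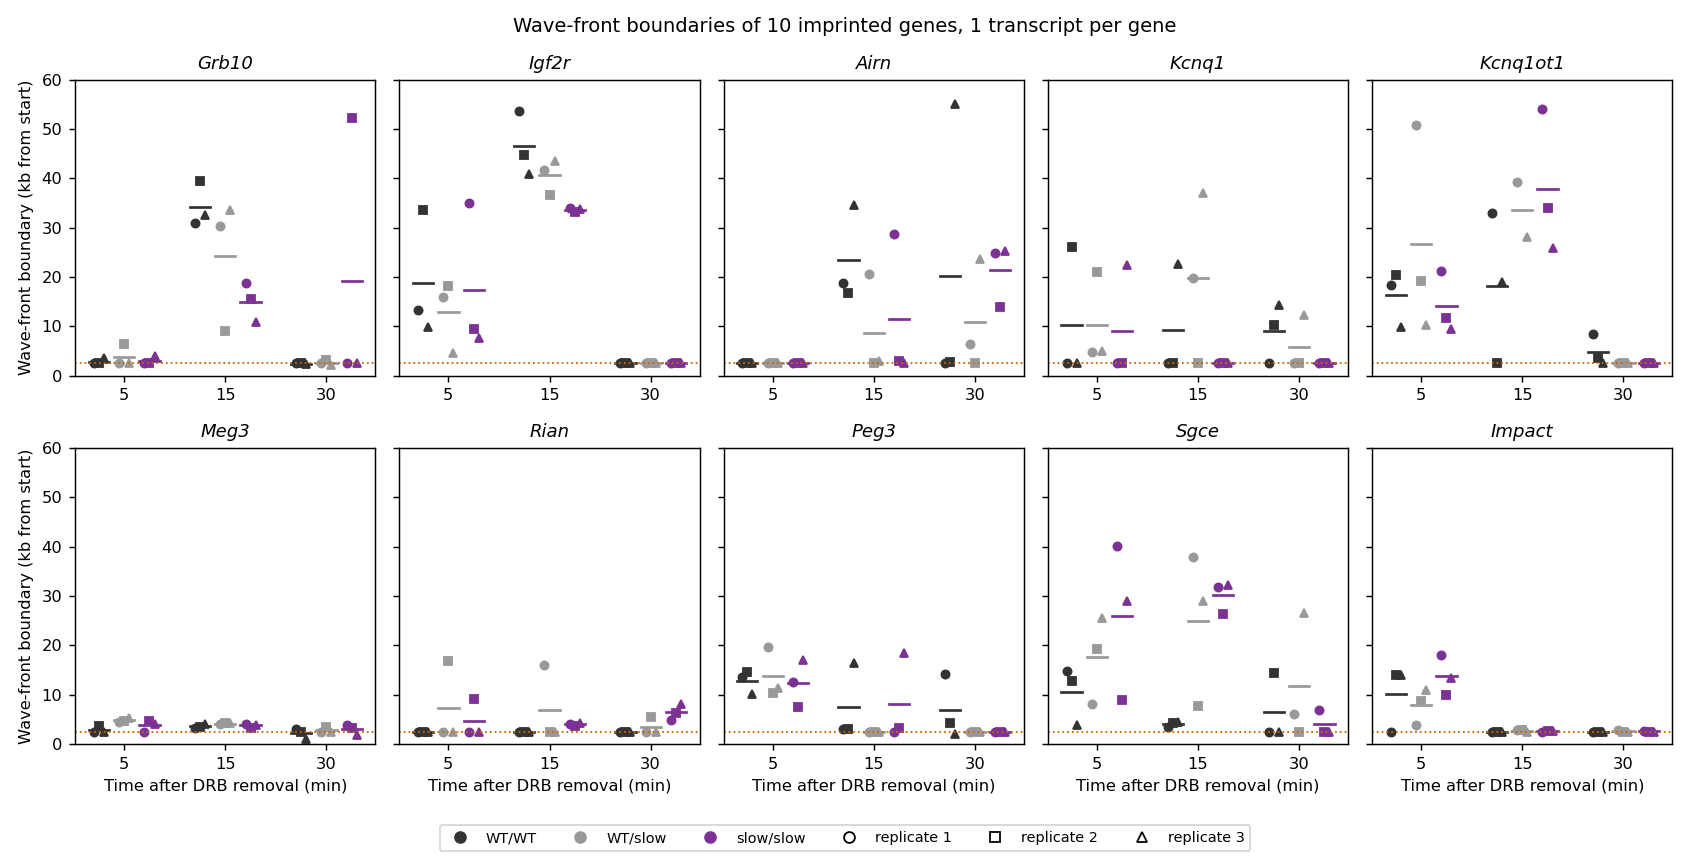
Wave-front boundary (kb from the transcription start, vertical axis) by time after DRB removal (min, horizontal axis) for 1 transcript of each gene. Points are the 3 replicates (marker shape) of each genotype (colour), short lines are means and the dotted line is at 2.5 kb. Grb10 and Igf2r boundaries lay farther out at 15 min than at 30 min in each genotype but for slow/slow replicate 2 of Grb10, and Meg3 boundaries stayed between 1.0 and 5.3 kb.

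Slow/slow and WT/WT cells were compared first. At 15 min, 12 of the 47 transcripts of the imprinted genes that had a boundary in each sample of the fit differed (limma, Benjamini-Hochberg adjusted p under 0.05 over 27424 transcripts, of which 8.76% were called). The boundary was less far in slow/slow cells for 3 Grb10 transcripts, against 1.82% of all transcripts, and farther for 9 Sgce transcripts, against 6.93% of all. The median difference was 0.0667 kb over the 47 transcripts and 0.267 kb over all transcripts tested. Of the 47, 4 had each slow/slow replicate below each WT/WT replicate at 15 min (3 of Grb10 and Igf2r), against 6.58% of all transcripts, and 12 had each above (11 of Sgce and 1 of Rian), against 11.9% of all. At 5 min none of the 47 was called by limma, with 9 at an unadjusted p under 0.05, and 0.551% of all transcripts were. The change in progress, which is the difference between genotypes in how far the boundary moved from 5 to 15 min, was called for 3 of the 47, the same Grb10 transcripts, each of them less far in slow/slow cells. Over all transcripts 5.72% were called for progress, and 0.66% were less far. The median change in progress was -0.5 kb over the 47 and 2.0 kb over all. The medians and the balance of directions changed when the 2.5 kb values were left out. At 15 min these values were 47.7% of WT/WT and 35.5% of slow/slow boundaries on all transcripts of at least 20 kb. On imprinted-gene transcripts of that length the shares were 26.98% and 27.2%. Without the 2.5 kb values 20 transcripts of the imprinted genes were left, 11 of them of Sgce. Their median was 25.2 kb at 15 min and 7.58 kb in progress, against -0.233 and 1.65 kb over all. This setting also changed which transcripts were tested. The shift of the imprinted-gene medians thus cannot be put down to the 2.5 kb values alone. Over all transcripts the calls at 15 min were then 619 farther and 598 less far, in place of 1901 and 500.

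**Figure D2:**
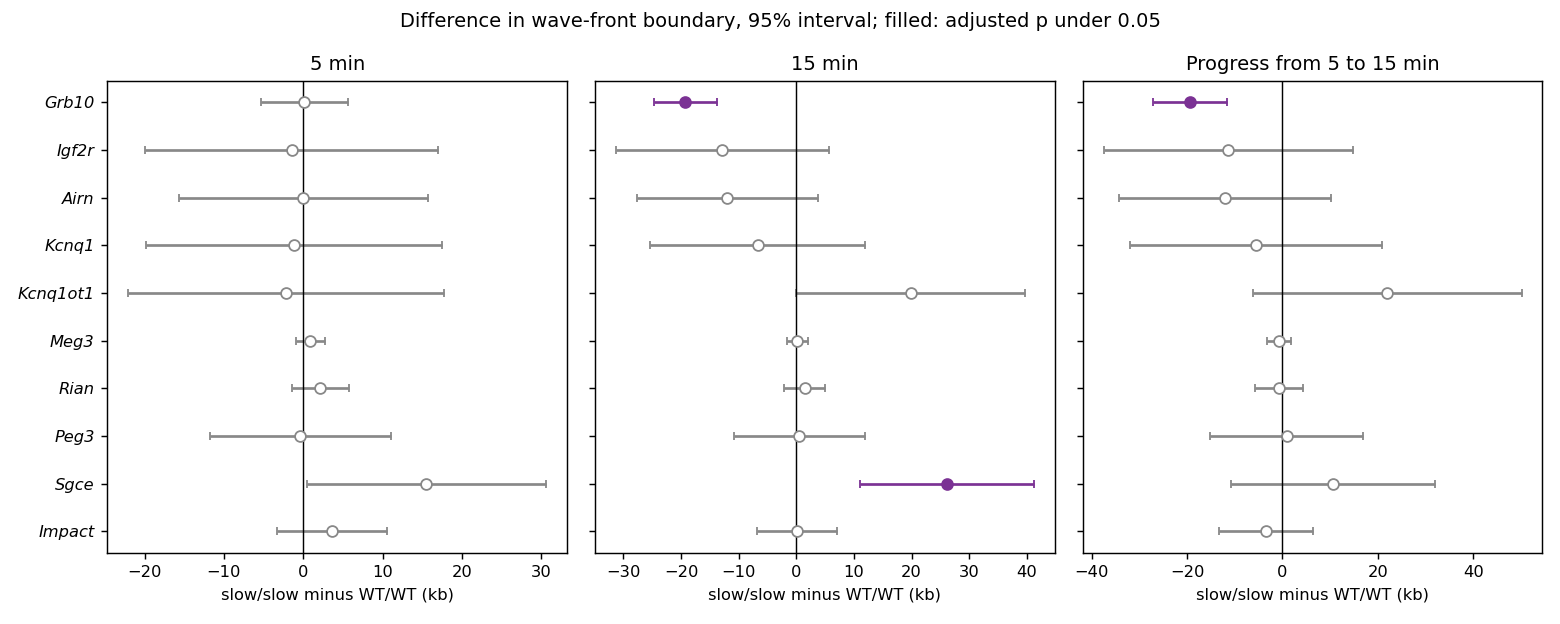
Difference in wave-front boundary between slow/slow and WT/WT cells (kb, horizontal axis) at 5 min, at 15 min and in the progress between them, for 1 transcript per gene (vertical axis), with 95% intervals from limma. Filled points had an adjusted p under 0.05, which were Grb10 at 15 min and in progress and Sgce at 15 min.

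Grb10 codes for an adaptor protein that dampens signalling from the insulin and IGF1 receptors. In WT/WT cells its boundaries on ENSMUST00000150972 (chromosome 11, 11967532 to 12026324, minus strand, GRCm38) were 2.6, 2.5 and 3.5 kb at 5 min and 31.0, 39.4 and 32.5 kb at 15 min. In slow/slow cells they were 2.5, 2.5 and 4.0 kb at 5 min and 18.8, 15.5 and 10.8 kb at 15 min. The genotypes overlapped at 5 min and did not overlap at 15 min, when each slow/slow replicate lay below each WT/WT replicate. The difference at 15 min was -19.3 kb (SE 2.43, adjusted p = 0.000911, limma), and the change in progress was -19.4 kb (SE 3.44, adjusted p = 0.00966, limma). The mean boundary at 15 min lay in intron 1 of this transcript in both genotypes, at position 11992024 in WT/WT and 12011291 in slow/slow cells.

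WT/slow replicates of ENSMUST00000150972 were at 30.3, 9.1 and 33.5 kb at 15 min. WT/slow replicates 1 and 3 lay within or near the WT/WT range and replicate 2 below each slow/slow replicate. The low value of replicate 2 depended on the transcript. Its boundary was at position 12017224 here, 12023632 on ENSMUST00000143915 and 11990671 on ENSMUST00000109654, with starts within 1.65 kb. On ENSMUST00000109654 WT/slow boundaries were at 11993771, 11990671 and 11993071, against 11995971, 11986471 and 11993771 in WT/WT cells. On ENSMUST00000150972 the difference from WT/WT was -10.0 kb (95% interval -22.6 to 2.59, adjusted p = 0.635, limma), and it was -2.40 kb without WT/slow replicate 2. At 30 min the boundaries of this transcript were between 2.2 and 3.1 kb in WT/WT and WT/slow cells, and 2.5, 52.3 and 2.5 kb in slow/slow cells.

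The 7 Grb10 transcripts tested differed by their start. ENSMUST00000109654, ENSMUST00000143915 and ENSMUST00000150972 start at positions 12027971, 12026732 and 12026324, and these were the 3 called. Their differences at 15 min ranged from -23.1 to -19.1 kb, and their changes in progress from -22.9 to -18.3 kb. ENSMUST00000093321 and ENSMUST00000143386 start farther upstream, at 12037401 and 12038683, and read through the same region, and their differences at 15 min were -2.20 kb (95% interval -29.2 to 24.8) and -1.53 kb (95% interval -27.5 to 24.4). The other 2, ENSMUST00000109653 and ENSMUST00000142877, start near the 3′ end of the gene and had boundaries between 1.8 and 2.5 kb in both genotypes at 15 min. For ENSMUST00000143386, WT/WT boundaries at 15 min were 7.5, 52.1 and 5.1 kb and slow/slow boundaries 8.0, 28.4 and 23.7 kb. In WT/WT replicate 2 the boundary called from this upstream start lay at nearly the same position as that of ENSMUST00000150972, 11986583 against 11986924. The same was seen in slow/slow replicates 2 and 3, at 12010283 against 12010824 and at 12014983 against 12015524. In WT/WT replicates 1 and 3 and slow/slow replicate 1 the boundary of ENSMUST00000143386 lay within 8.0 kb of its start. These transcripts overlap on the same strand, so that reads in the shared stretch cannot be assigned to either start. Whether the genotype difference itself differed between the starts was not tested.

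**Figure D3:**
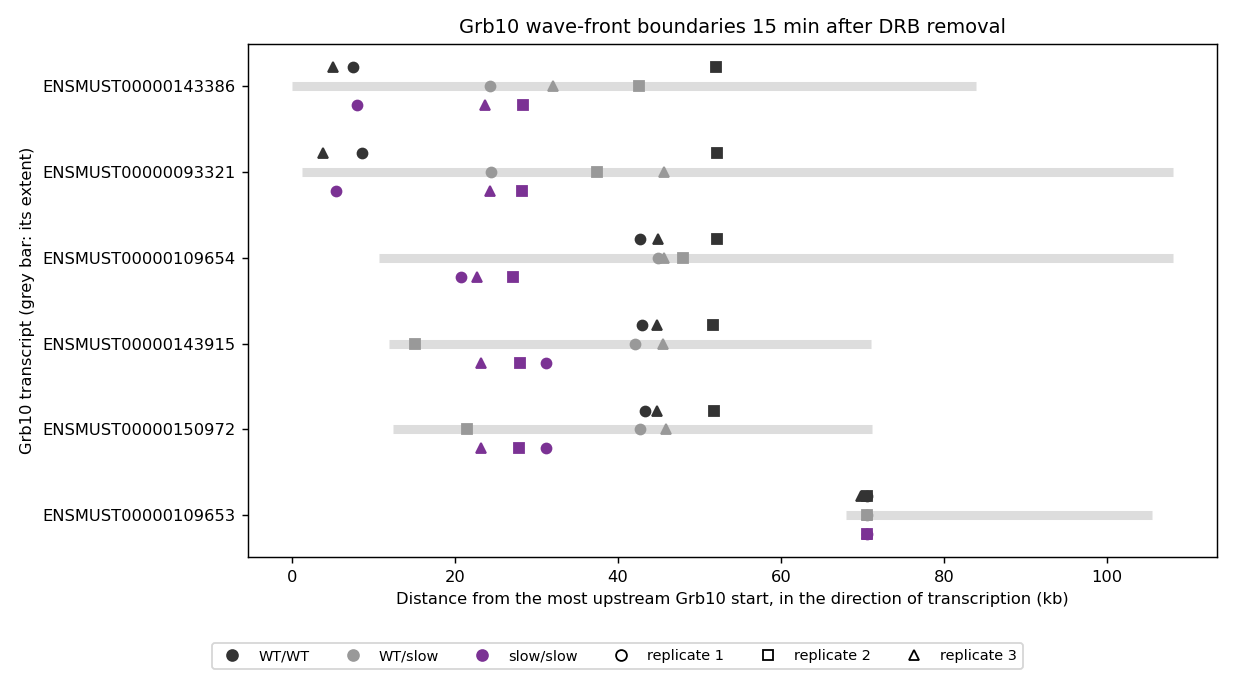
Wave-front boundaries of the Grb10 transcripts of at least 20 kb at 15 min after DRB removal, as distance from the most upstream Grb10 start in the direction of transcription (kb, horizontal axis). Each row is a transcript (grey bar), points are replicates (marker shape) and colours genotypes, and the 3 transcripts with starts in the middle show slow/slow points to the left of all WT/WT points.

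Sequences just before 2 Grb10 starts are shown because ENSMUST00000109654, from the downstream one, was called and ENSMUST00000093321, from near the upstream one, was not. Each is the 150 bases before the start in the direction of transcription (RefSeq, GRCm38.p6, minus strand), at chr11:12037421-12037570 and chr11:12027972-12028121, with each CpG dinucleotide, the site of mammalian DNA methylation, in capitals.
Grb10 upstream start: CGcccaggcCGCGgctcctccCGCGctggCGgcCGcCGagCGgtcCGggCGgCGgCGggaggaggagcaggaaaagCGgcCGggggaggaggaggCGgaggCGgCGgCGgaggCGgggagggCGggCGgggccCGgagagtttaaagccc
Grb10 downstream start: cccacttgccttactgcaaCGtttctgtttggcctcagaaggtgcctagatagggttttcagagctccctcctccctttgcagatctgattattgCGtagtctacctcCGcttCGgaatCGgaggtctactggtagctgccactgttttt
The whole 300-base promoter windows, which run from 250 bases before to 50 bases after the start, held 45 CpGs at the upstream start, more than 98.1% of the 32851 mouse promoters in the table, and 9 at the downstream start, near the median of 7. The downstream start is that of ENSMUST00000109654, and the upstream one lies 19 bases before that of ENSMUST00000093321. The called ENSMUST00000143915 and ENSMUST00000150972 start farther downstream, at 12026732 and 12026324. The bases before those starts were not examined. TGCCGC, the motif bound by the imprint-protecting factor ZFP57, was searched on both strands (as TGCCGC and GCGGCA, each holding a CpG counted above). It was in 2 of the 9 promoters examined, the upstream Grb10 and the first Meg3 promoter, and in 11.6% of all promoters. The 9 promoters belong to 7 of the 10 genes. Kcnq1 and Sgce had no promoter in this set. Impact was left out when the promoters were selected, so that its promoter was not examined. The count thus does not cover Kcnq1, Sgce or Impact.

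The transcripts of other genes whose boundaries were nearest to those of Grb10 were in Fbrsl1, Clpb and Prkd3, with mean absolute differences of 2.88, 3.58 and 3.77 kb over the 18 samples at 5 and 15 min, among 14740 transcripts of at least 40 kb.

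Igf2r codes for the receptor that takes up and clears IGF2, and only ENSMUST00000024599 (chromosome 17, 12682406 to 12769664, minus strand) of its 3 transcripts had boundaries. At 15 min they were 53.7, 44.8 and 40.9 kb in WT/WT cells, 41.8, 36.6 and 43.6 kb in WT/slow cells and 34.0, 33.2 and 33.7 kb in slow/slow cells. Slow/slow replicates lay within 0.8 kb of each other and below every WT/WT and WT/slow replicate. The difference between slow/slow and WT/WT was -12.8 kb (95% interval -31.3 to 5.65) and was not called (adjusted p = 0.497, limma), with a common residual spread that took in the 5 min samples. Those were 13.3, 33.5 and 9.8 kb in WT/WT and 35.1, 9.4 and 7.7 kb in slow/slow cells, so that 1 replicate in each genotype stood far ahead of the others. At 30 min each of the 9 boundaries was 2.5 kb.

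Airn starts inside Igf2r, 28.4 kb from the Igf2r start, and runs back across it on the other strand. At 15 min the Igf2r boundary was past the Airn start in 3 of 3 replicates of each genotype, and at 5 min in 1 of 3 WT/WT, 0 of 3 WT/slow and 1 of 3 slow/slow replicates. The libraries were made with a directional kit, which keeps the strand of the RNA, but whether strand was used when the waves were called is not given in the sources used here. If it was not, reads of the 2 genes in the shared stretch could not be told apart. The 150 bases before each start are shown because the 2 transcripts overlap (RefSeq, GRCm38.p6, CpGs in capitals), for Igf2r at chr17:12769707-12769856 on the minus strand and for Airn at chr17:12741161-12741310 on the plus strand.
Igf2r: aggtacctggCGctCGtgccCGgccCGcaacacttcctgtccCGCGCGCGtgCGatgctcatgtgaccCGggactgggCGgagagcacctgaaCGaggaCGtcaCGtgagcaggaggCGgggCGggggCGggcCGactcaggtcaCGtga
Airn: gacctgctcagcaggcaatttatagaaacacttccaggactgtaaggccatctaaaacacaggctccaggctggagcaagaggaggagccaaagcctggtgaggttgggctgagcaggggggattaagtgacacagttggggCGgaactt
The 300-base window held 34 CpGs for Igf2r, more than 92.3% of promoters, and 3 for Airn.

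**Figure D4:**
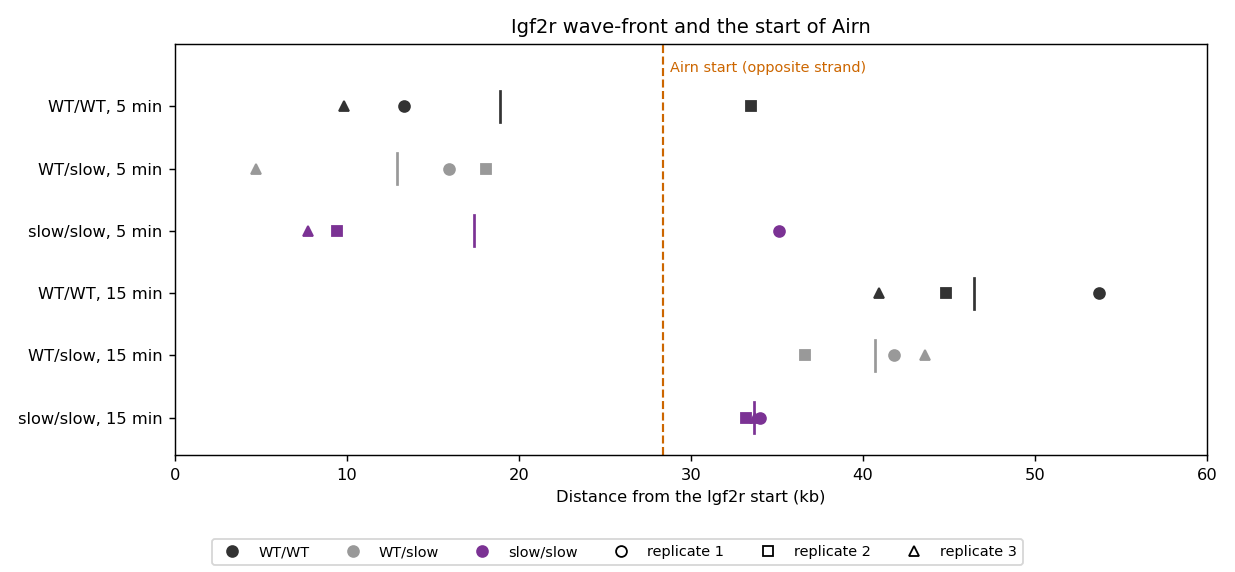
Wave-front boundaries of Igf2r at 5 and 15 min, as distance from the Igf2r start (kb, horizontal axis), by genotype and time (vertical axis). Points are replicates (marker shape), vertical bars are means and the dashed line is the Airn start at 28.4 kb, which every 15 min point had passed.

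On ENSMUST00000160932, the longest Airn transcript at 118.8 kb, each of the 9 boundaries at 5 min was 2.5 kb. At 15 min they were 18.8, 16.8 and 34.6 kb in WT/WT cells, 20.7, 2.5 and 2.9 kb in WT/slow cells and 28.7, 3.0 and 2.5 kb in slow/slow cells. Each WT/WT replicate was thus at 16.8 kb or more at 15 min. In each mutant genotype 1 of 3 replicates was at 20.7 kb or more, and the others were at 3.0 kb or less. The slow/slow difference was -12.0 kb (95% interval -27.7 to 3.72, adjusted p = 0.432, limma). It was -20.7 kb (adjusted p = 0.0387, limma) without slow/slow replicate 1, the replicate at 28.7 kb and the slow/slow one against the difference. No Airn transcript was called when any other replicate was left out. At 30 min the boundaries spread from 2.5 to 55.1 kb in WT/WT, from 2.5 to 23.7 kb in WT/slow and from 13.9 to 25.3 kb in slow/slow cells.

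Kcnq1 codes for a voltage-gated potassium channel, and Kcnq1ot1 starts 189.0 kb into the long Kcnq1 transcript, on the other strand. On Kcnq1ot1 (chromosome 7, 143212155 to 143296549, minus strand) WT/WT boundaries at 5 min were 18.4, 20.5 and 9.9 kb, and slow/slow boundaries 21.3, 11.6 and 9.5 kb. At 15 min they were 32.9, 2.5 and 18.9 kb in WT/WT and 54.1, 33.9 and 25.8 kb in slow/slow cells, and 39.2 and 28.1 kb in the 2 WT/slow replicates with a call. The slow/slow values were the higher on average but the genotypes overlapped, and the difference of 19.8 kb (95% interval -0.0975 to 39.8) was not called (adjusted p = 0.252, limma). Kcnq1ot1 had no boundary in WT/slow replicate 2 at 15 min and so was left out of the fit of WT/slow cells at 5 and 15 min. Where a boundary in 2 of 3 replicates was enough, it was not called in WT/slow cells at 15 min (adjusted p = 0.906, limma).

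The 7 Kcnq1 transcripts, none of which was called between slow/slow and WT/WT cells with all replicates, start within 2.83 kb of each other and differ in their ends. On ENSMUST00000186488, which is 43.2 kb long, the boundaries at 15 min were 2.5, 2.5 and 22.6 kb in WT/WT cells, 19.8, 2.5 and 37.0 kb in WT/slow cells and 2.5 kb in each slow/slow replicate. On the long ENSMUST00000185383 (318.6 kb) they were 55.3, 48.7 and 9.1 kb in WT/WT and 2.5, 2.5 and 27.7 kb in slow/slow cells. The long transcript thus had 2 WT/WT replicates above each slow/slow replicate and 1 inside their range, a difference of -26.8 kb (95% interval -52.3 to -1.31, adjusted p = 0.224, limma). Without WT/WT replicate 3, the replicate at 9.1 kb, the difference was -41.1 kb (adjusted p = 0.0127, limma). That replicate was the WT/WT one against the difference. When any other WT/WT or slow/slow replicate was left out no Kcnq1 transcript was called, with lowest adjusted p between 0.209 and 0.560 (limma).

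Sgce codes for epsilon-sarcoglycan, a membrane protein, and is expressed from the paternal copy. In WT/WT cells its boundaries on ENSMUST00000126151 (chromosome 6, 4674354 to 4747157, minus strand) were 14.8, 12.7 and 3.8 kb at 5 min and 3.5, 4.3 and 4.4 kb at 15 min. In slow/slow cells they were 40.1, 8.9 and 28.9 kb at 5 min and 31.9, 26.4 and 32.3 kb at 15 min. WT/WT boundaries were thus all close to the start at 15 min, and each slow/slow replicate was above each WT/WT replicate. The WT/WT mean lay nearer the start at 15 min than at 5 min. The genotype difference at 15 min is thus one of called positions, and not a measure of polymerase movement. The difference at 15 min was 26.1 kb (SE 6.67, adjusted p = 0.0425, limma), and the change in progress of 10.6 kb (95% interval -10.8 to 32.0) was not called (adjusted p = 0.712, limma). The mean boundary at 15 min was in intron 1 in WT/WT and in intron 2 in slow/slow cells.

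The 11 long Sgce transcripts start within 144 bases of each other and gave nearly 1 pattern. At 15 min their boundaries ranged from 2.5 to 8.3 kb over the WT/WT replicates and from 26.3 to 54.3 kb over the slow/slow replicates. The 9 called had differences between 26.1 and 33.6 kb with adjusted p between 0.0319 and 0.0467, and the other 2 had adjusted p of 0.0544 and 0.0567. No Sgce transcript was called when WT/WT replicate 1, 2 or 3 or slow/slow replicate 3 was left out, with lowest adjusted p of 0.117, 0.103, 0.0887 and 0.114. In WT/slow cells ENSMUST00000126151 was at 37.9, 7.6 and 29.0 kb at 15 min, all above WT/WT, with a difference of 20.8 kb that was not called (95% interval 4.06 to 37.5, adjusted p = 0.334, limma). Only 5 of the 11 had a boundary in WT/slow replicate 2, at 7.4 to 7.6 kb, the lowest WT/slow replicate. None of these 5 was called with all replicates (lowest adjusted p = 0.227, limma). Where a boundary in 2 of 3 replicates was enough, 6 of the 11 were called in WT/slow cells, all farther. That setting takes in the transcripts that lack a value in this low replicate.

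**Figure D5:**
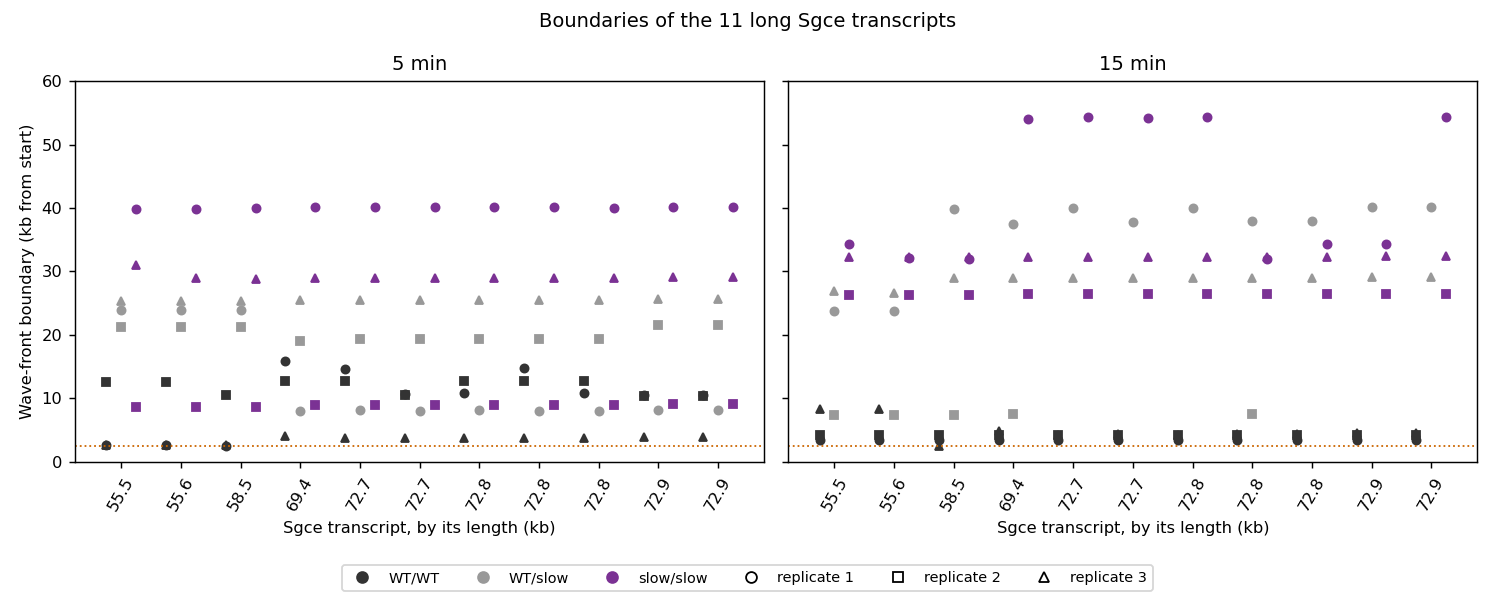
Wave-front boundary (kb from the start, vertical axis) at 5 and 15 min for the 11 long Sgce transcripts, each named by its length (kb, horizontal axis). Points are replicates (marker shape) and colours genotypes, and the dotted line is at 2.5 kb. At 15 min WT/WT points lie at 8.3 kb or less and slow/slow points at 26.3 kb or more.

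The remaining genes, with described transcripts of 20.7 to 41.5 kb, showed no called difference between genotypes. On Meg3 (ENSMUST00000143836, 30.7 kb) the boundaries at 15 min were 3.3, 3.4 and 4.1 kb in WT/WT cells, 4.0, 4.2 and 4.2 kb in WT/slow cells and 4.1, 3.3 and 3.9 kb in slow/slow cells. The slow/slow difference was 0.167 kb, with a 95% interval from -1.66 to 2.00 kb. Rian, the host of many small nucleolar RNAs, starts 32.2 kb past the end of Meg3. Its transcripts did not share 1 pattern, and on others WT/WT boundaries at 15 min reached 8.2, 8.4 and 8.6 kb. ENSMUST00000182689, which starts at 109604046, had 5 of its 27 boundaries at 2.5 kb. Of 6 Rian transcripts tested at 15 min, 1 had each slow/slow replicate above each WT/WT replicate. This was ENSMUST00000183215, which starts at 109603945. On it the boundary was 2.5 kb in all 9 WT/WT samples. In slow/slow cells it was 4.1, 3.6 and 4.3 kb at 15 min and 4.8, 6.3 and 8.0 kb at 30 min, each replicate above WT/WT, with differences of 1.5 kb (adjusted p = 0.735) and 3.87 kb (adjusted p = 0.45, limma).

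Peg3, a paternally expressed zinc-finger gene, and Impact, which codes for a regulator of the translation kinase GCN2, had mean boundaries farther from the start at 5 than at 15 min in each genotype on the transcripts described. The exception among the long Peg3 transcripts was ENSMUST00000051209 in slow/slow cells, with 10, 6.8 and 5.5 kb at 5 min and 2.7 and 18.2 kb in the 2 replicates with a call at 15 min. On Peg3 (ENSMUST00000150182, 21 kb) the boundaries at 5 min were 13.5, 14.5 and 10.1 kb in WT/WT cells, 19.7, 10.4 and 11.4 kb in WT/slow cells and 12.5, 7.5 and 17.0 kb in slow/slow cells. At 15 min they were 3.1, 3.1 and 16.3 kb in WT/WT cells, 2.5 kb in each WT/slow replicate and 2.5, 3.2 and 18.4 kb in slow/slow cells. Replicate 3 thus stayed far out in WT/WT and slow/slow cells. On Impact (20.7 kb) they were 2.5, 14.0 and 14.0 kb in WT/WT cells, 3.8, 8.7 and 10.9 kb in WT/slow cells and 18.1, 9.9 and 13.3 kb in slow/slow cells at 5 min, and between 2.5 and 2.8 kb in all 9 samples at 15 min.

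Within genotypes, the boundaries at 15 and 5 min were then compared. In WT/WT cells 3 of 51 transcripts were called (limma, adjusted p under 0.05), against 5.39% of all transcripts, and these were the 3 Grb10 transcripts, with moves of 31.3 to 33.2 kb. In slow/slow cells 4 of 47 were called, against 30.5% of all: the same 3 Grb10 transcripts, by 10.3 to 13 kb, and Impact, whose boundary was nearer the start by -11.2 kb (SE 2.23, adjusted p = 0.0198). In WT/slow cells 3 of 42 were called, against 10.6% of all: Grb10 ENSMUST00000109654 by 32.2 kb (SE 1.14, adjusted p = 0.000668), Igf2r by 27.8 kb (SE 4.36, adjusted p = 0.0262) and Peg3 ENSMUST00000051209 by -8.87 kb (SE 1.73, adjusted p = 0.0464). The share called was below the background in WT/slow and slow/slow cells and close to it in WT/WT cells. With the replicate number as a block 1 of the 3 WT/slow calls, that of Grb10, remained. With a variance trend no WT/WT transcript of these genes was called by limma (12 at an unadjusted p under 0.05). The 3 Grb10 calls in WT/WT cells remained without WT/WT replicate 2 but were all lost without replicate 1, when 1 transcript was called, of Impact and nearer the start, and without replicate 3, when 11 were called, 7 farther (5 of Airn and 2 of Kcnq1) and 4 nearer (3 of Sgce and 1 of Peg3). In WT/slow cells Grb10 ENSMUST00000109654 remained called whichever replicate was left out, Igf2r was lost each time and Peg3 ENSMUST00000051209 remained only without replicate 1, with counts of 6, 5 and 1 without replicates 1, 2 and 3. In slow/slow cells the Impact call was lost whichever replicate was left out. Of the 3 Grb10 calls there, 0, 1 and 2 remained without slow/slow replicates 1, 2 and 3, and the 3 transcripts called without replicate 1 were others, of Grb10, Igf2r and Meg3.

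WT/slow cells, compared with the same WT/WT samples, had no called transcript among 41 at 5 min, at 15 min or in progress (limma, adjusted p under 0.05). At an unadjusted p under 0.05 there were 4, 10 and 0 of the 41. Over all transcripts 0.209%, 1.91% and 0.495% were called, and the 62 calls over all at 5 min became 33 under a replicate block. At 30 min none of 48 transcripts was called between slow/slow and WT/WT (2 at an unadjusted p under 0.05) and none of 53 between WT/slow and WT/WT (0 at an unadjusted p under 0.05), against 0.905% and 0.768% of all, and with the replicate block the 348 calls over all between WT/slow and WT/WT became 81. At 30 min 17 of the 30 WT/WT boundaries of the 10 described transcripts were at 2.5 kb, as were 19 of 30 in WT/slow and 18 of 30 in slow/slow cells.

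For comparison, 60 other imprinted genes and 20 genes of factors that keep or read imprints were taken from general knowledge. Of 135 transcripts of 27 other imprinted genes tested at 15 min, 6 were called (limma), all farther in slow/slow cells, with a median difference of 0.5 kb over the 135. This share was below the 8.76% called over all transcripts. They were in Slc38a4, a paternally expressed amino acid transporter gene (32.2 kb, SE 2.18, adjusted p = 4.21e-05), Ube3a, a ubiquitin ligase gene (4 transcripts, the lowest adjusted p 5.62e-05 at 30.2 kb), and Casd1, a neighbour of Sgce (22.7 kb, SE 4.86, adjusted p = 0.0178). Progress was called for 5 of the 135, in Slc38a4 and Ube3a, all farther, against 5.72% over all. The direction at 15 min depended on the setting, with 2 farther and 3 less far without the 2.5 kb values and 4 farther and 7 less far without WT/WT replicate 2.

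Of 84 transcripts of 17 genes of imprint factors tested, 16 were called farther in slow/slow cells at 15 min and 0 less far (limma), against 6.93% farther over all transcripts, with a median difference of 5.98 kb. Of 27 left without the 2.5 kb values 3 were called, with a median of -3.80 kb, and of 21 of at least 60 kb 0 were called (limma, 8 at an unadjusted p under 0.05), with a median of -3.93 kb. Where a boundary in 2 of 3 replicates was enough, the median over 116 was 0.683 kb, with 16 farther and 1 less far, and without WT/WT replicate 2 there were 11 farther and 3 less far. They included Ctcf, an insulator protein gene (24.1 kb, SE 3.27, adjusted p = 0.00134), Ezh2, a histone methyltransferase gene (27.4 kb, SE 3.04, adjusted p = 0.000451), Dnmt1, the maintenance DNA methyltransferase gene (22.3 kb, SE 4.34, adjusted p = 0.0107), Atrx, a chromatin remodeller gene (28.0 kb, SE 4.10, adjusted p = 0.00206), and Kdm1b, a histone demethylase gene (6.93 kb, SE 0.720, adjusted p = 0.000335). Progress was called for 9 of the 84, all farther, against 5.72% over all.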

How the data were processed

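4sU-DRB-seq was measured in 27 samples of mouse ESCs. The authors aligned reads to mm10 (GRCm38) with Bowtie2 2.2.9 (per the labels), kept uniquely mapped reads outside rRNA, binned them, and found the end of each wave with published software, against the average of the 0 min samples. The deposited values, one table per sample, are boundaries in bases from the transcription start in steps of 100 bases, a unit of their own with no normalization. Depth is unknown, so no counting interval was given, and the precision rests on 3 replicates, which the methods call biological. The libraries were directional, and neither the annotation release nor the use of strand in wave calling is given in the sources used here.

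Groups were taken from the labels. limma 3.58.1 (R 4.3.3, lmFit and eBayes) was fitted to the boundaries of all transcripts with a boundary in every sample of the fit, 12 samples for 2 genotypes at 5 and 15 min and 6 otherwise, with Benjamini-Hochberg adjustment over all of them and calls at an adjusted p under 0.05. Both mutant genotypes were compared with the same WT/WT samples. The script was tested on simulated data. Genes were located with GENCODE M21 (71 of 74 transcripts had the same coordinates), and promoters came from RefSeq GRCm38.p6. Described transcripts were those with a boundary in most samples, ties to the longest. From the comparison lists, at most 5 genes with the lowest adjusted p were named. The deviations of samples with equal replicate numbers correlated at r of 0.0174 to 0.135 between slow/slow and WT/WT, 0.0989 to 0.324 between WT/slow and WT/WT (each at least 0.118 at 5 and 30 min but not at 15 min) and, between 5 and 15 min, -0.0176 to 0.0501 in WT/WT, 0.11 to 0.216 in WT/slow and 0.0773 to 0.134 in slow/slow cells. By a limit of 0.1 for each number, the numbers paired samples between WT/slow and WT/WT at 5 and 30 min, and within WT/slow. Between WT/slow and WT/WT at those times no transcript of the imprinted genes was called with or without the replicate block. Unequal numbers correlated at most at 0.0314 between slow/slow and WT/WT and 0.0493 between WT/slow and WT/WT. Most samples thus correlated best with their own number, also below the limit, so that a weak pairing of slow/slow and WT/WT samples is not set aside by it. Alternatives were a boundary in 2 of 3 replicates, no 2.5 kb values, log2 values, minimum lengths of 20 or 60 kb, 1 transcript per gene, a variance trend, a replicate block, all genotypes in 1 fit and leaving out each replicate. The genes, lists and tests were chosen with earlier results of these data known.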

Additional observations from a re-analysis of the deposited data

Results flagged for a closer look

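The genotype difference of Grb10 was not the same at 5 and 15 min, by the test of that difference itself (limma, Benjamini-Hochberg adjusted p under 0.05). From 5 to 15 min the slow/slow boundary moved less far than the WT/WT boundary on ENSMUST00000109654 by -22.9 kb (SE 3.36, adjusted p = 0.00375), on ENSMUST00000150972 by -19.4 kb (SE 3.44, adjusted p = 0.00966) and on ENSMUST00000143915 by -18.3 kb (SE 3.46, adjusted p = 0.0132). The 3 starts lie within 1.65 kb of each other, so that the 3 results rest on nearly the same reads. At 5 min 6 of the 18 boundaries of the 3 transcripts in these genotypes were above 2.5 kb, the highest at 4.2 kb. Groups of 3 replicates are too small for a search for single outlying samples.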

How the results depend on the processing

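Under the alternatives, 110 counts of called imprinted-gene transcripts stayed within 1.5 times the count reported and 41 moved further. Between slow/slow and WT/WT at 15 min the 12 became 6 with a boundary in 2 of 3 replicates, 2 with 1 transcript per gene, 5 with all genotypes in 1 fit and 3 to 17 leaving out 1 replicate. In progress the 3 became 0 without 2.5 kb values, 1 on log2 values, 1 at 60 kb or more, 1 with 1 transcript per gene, 1 with all genotypes in 1 fit and 1 to 4 leaving out 1 replicate. Without 2.5 kb values the 3 Grb10 transcripts could not be fitted, since fewer than 2 of their 3 slow/slow boundaries at 5 min differed from 2.5 kb. For WT/slow at 15 min the 0 became 6 with a boundary in 2 of 3 replicates, 6 without 2.5 kb values and 0 to 3 leaving out 1 replicate, the 3 without WT/slow replicate 2 and all in Sgce. Leaving out 1 replicate gave 0 to 3 for slow/slow at 5 min (3 of Sgce without slow/slow replicate 2, 1 of Meg3 without slow/slow replicate 1), and 0 to 1 for either mutant at 30 min (slow/slow without WT/WT or slow/slow replicate 2, WT/slow without WT/slow replicate 2), where slow/slow had 1 with a boundary in 2 of 3 replicates. From 5 to 15 min in WT/WT the 3 became 8 on log2 values, 1 at 60 kb or more, 1 with 1 transcript per gene, 0 with a variance trend, 0 with the replicate block and 1 to 11 leaving out 1 replicate. In WT/slow the 3 became 5 with a boundary in 2 of 3 replicates, 1 with 1 transcript per gene, 1 with the replicate block and 1 to 6 leaving out 1 replicate. In slow/slow the 4 became 1 without 2.5 kb values, 1 at 60 kb or more, 2 with 1 transcript per gene, 1 with the replicate block and 1 to 3 leaving out 1 replicate. Why these counts moved was not tested, except that 1 transcript per gene and 60 kb or more leave fewer transcripts.

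The 3 Grb10 transcripts remained called at 15 min whichever replicate was left out. With all genotypes in 1 fit 2 Grb10 transcripts were called at 15 min, and without 2.5 kb values the 3 could not be fitted. Grb10 ENSMUST00000150972 was no longer called in progress on log2 values (adjusted p = 0.143), with all genotypes in 1 fit (0.188) or without slow/slow replicate 2 (0.0633), and no called value changed sign. With the replicate block 10 of the 12 calls at 15 min remained, and Sgce ENSMUST00000126151 had an adjusted p of 0.0530. The number of replicates and the 2.5 kb values limit what these tables can show.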
